A study of Homo sapiens with 9 samples.

Results

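Chromosome 19 carries the largest collection of zinc finger genes in the human genome, and 240 of them are described here in clones of LNCaP, a human prostate cancer cell line. The members are all genes whose symbol is ZNF followed by digits, that lie on chromosome 19 in GENCODE, and whose mean normalized count over the 9 libraries was at least 1. They are 240 of the 19984 gene identifiers in the expression table. Of the 241 candidates only ZNF99 of 19p12, with a mean of 0.963, fell below that limit, and the lowest members were ZNF723 with a mean of 1.57 and ZNF729 with a mean of 1.82. By cytogenetic band, 50 members lie in 19p13, 32 in 19p12, 1 in 19q12 and 157 in 19q13.

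The study made its deletion clones with CRISPR-Cas9 by removing the promoter and the first exons of *EPCART*, a long noncoding RNA gene, and its question here was how gene expression changes without that RNA. RNA-seq covered 3 clones with 3 cultures each, namely del-4 and del-56, which both carry the *EPCART* deletion, and 1 wild-type clone (WT) from the same procedure, and all were grown in serum-containing medium for 48 h. Deletion is represented by 2 clones and WT by 1, so the effect of the deletion and a difference between single clones cannot be told apart. Reads on genes ranged from 91074556 to 118877134 per library, and the members took between 0.364% and 0.385% of them. *EPCART* itself was not analysed here, because the table covers protein-coding genes.

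Most zinc finger proteins of this chromosome carry rows of C2H2 fingers that read DNA and, in front of them, a KRAB domain that recruits the corepressor TRIM28. TRIM28 brings in the histone methyltransferase SETDB1, which lays down the silencing mark H3K9me3, and many of these proteins keep retrotransposons silent in this way. The genes stand side by side in clusters that grew by tandem duplication, and the cluster of 19p12 is one that expanded in primates.

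In the deletion clones the members moved mostly by small steps, and of the 15 that passed the test with more than 1 log2 unit in any comparison, 10 lie in 19p12. There, ZNF492 was far below WT in del-4 and del-56, at 0.0444 and 0.0503 times it in geometric means of the normalized count plus 1. These sizes rested in part on the lowest library of each clone. ZNF257 and ZNF208 were higher in del-4 than in either other clone, and ZNF681 was lower in both deletion clones. As a group, the 19p12 members were lower in del-56 than in WT and lower than in del-4. By the read limits set below, 0 members were fully on in one clone and fully off in another. Of all genes with a mean of at least 1, 0.2% were. With a lower limit for on, 1 member was.

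The promoters of the 19p12 genes resembled each other, and a few are shown so that the shared letters can be seen. They were taken from RefSeq (GRCh38.p14), whose table gave a promoter of 300 bases, 250 before and 50 after the start site, for 210 of the 240 members and 27 of the 32 in 19p12. Each line gives the last 150 bases before the start site, read 5′ to 3′ on the strand of the gene. Capitals mark a stretch of 10 bases, TCCAATCAGG, that was picked after the sequences were compared, and the first 4 genes are members with large differences while ZNF91 is an abundant neighbour. The lines cover chr19:22634174-22634323 on the plus strand for ZNF492, chr19:22052334-22052483 on the plus strand for ZNF257, chr19:22010944-22011093 on the minus strand for ZNF208, chr19:23758892-23759041 on the minus strand for ZNF681 and chr19:23395472-23395621 on the minus strand for ZNF91.
ZNF492: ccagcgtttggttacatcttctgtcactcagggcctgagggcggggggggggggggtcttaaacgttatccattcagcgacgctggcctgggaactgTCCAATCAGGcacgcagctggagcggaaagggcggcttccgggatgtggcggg
ZNF257: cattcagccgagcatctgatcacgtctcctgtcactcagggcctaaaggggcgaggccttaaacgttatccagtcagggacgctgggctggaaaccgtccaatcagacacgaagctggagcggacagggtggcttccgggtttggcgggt
ZNF208: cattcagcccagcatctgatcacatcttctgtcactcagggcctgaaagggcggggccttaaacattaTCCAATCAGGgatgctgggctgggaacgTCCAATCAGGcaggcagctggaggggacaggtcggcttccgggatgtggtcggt
ZNF681: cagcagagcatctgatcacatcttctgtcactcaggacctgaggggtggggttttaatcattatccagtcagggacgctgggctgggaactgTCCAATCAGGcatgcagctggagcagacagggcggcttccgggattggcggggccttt
ZNF91: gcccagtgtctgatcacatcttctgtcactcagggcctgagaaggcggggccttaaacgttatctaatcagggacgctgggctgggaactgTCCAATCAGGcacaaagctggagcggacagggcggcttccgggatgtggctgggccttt

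The 10-base stretch stood in 24 of the 27 promoters of 19p12 (88.9%), in 10.4% of the 183 promoters of other members and in 0.388% of all 27305 promoters, both strands being searched. ZNF208 holds 2 copies of it. In ZNF257, ZNF493 and ZNF723 these letters were absent from the window. Where present, the copy nearest the start site ended between 14 and 73 bases before it, with a median of 47.5 bases. The stretch contains CCAAT, the letters of the CCAAT box, which were found on either strand in all 27 promoters of 19p12 (100%), in 52.9% of the promoters of all members and in 35.7% of all promoters. Over the 351 pairs of 19p12 promoters, the aligned identity ranged from 72% to 91.1% with a median of 83.8%. TATAAA was found in 11.1% of the 19p12 promoters and in 12% of all promoters.

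The bands differed in CpG number as well. The median promoter held 10 CpG dinucleotides in 19p12, 18 in 19p13 and 23 in 19q13, against 14 over all promoters. At least 10 CpG were counted in 66.7% of 19p12 promoters, 98.5% of 19q13 promoters and 56% of all promoters. The promoters of ZNF492, ZNF730 and ZNF726, with 16 CpG each, were the richest of the 27 in 19p12, and that of ZNF681 held 9. The plot of promoter CpG number against level shows these bands side by side.

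**Figure D1:**
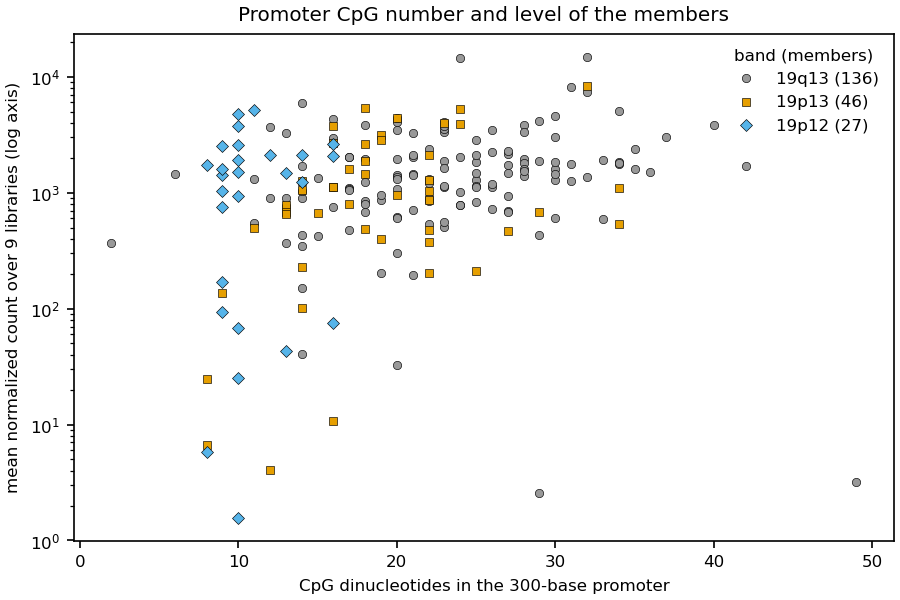
Mean normalized count over the 9 libraries (log axis) against the number of CpG dinucleotides in the 300-base RefSeq promoter, with 1 point per member and 1 symbol per band. The 27 members of 19p12 lie at the left, with a median of 10 CpG, and span levels from 1.57 to 5169 normalized counts.

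Most members were clearly expressed, but their median level lay below that of all genes. The median member had a mean normalized count of 1263, against 1936 over all 17530 genes with a mean of at least 1, and per kilobase of exon the medians were 235.3 and 336.6. Normalized counts are reads divided by 1 scaling factor per library. Per kilobase, the median level was 170.4 in 19p12, 225.7 in 19p13 and 245.8 in 19q13. Fewer than 100 normalized counts were found for 22 members and fewer than 10 for 9. Of the 22 low members, 10 lie in 19p12.

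Highest per kilobase were ZNF358, ZNF565, ZNF146, ZNF581 and ZNF787, with 4011, 3973, 3510, 2479 and 2021 normalized counts per kilobase. ZNF146 encodes a short protein made almost entirely of fingers. It had 14400, 15170 and 14690 normalized counts in del-4, 14510, 15590 and 15350 in del-56 and 14050, 13840 and 13270 in WT. ZNF565 lies over it on the opposite strand, and its 9 values followed those of ZNF146 closely, with means of 15030, 15450 and 14050 against 14750, 15150 and 13720 in del-4, del-56 and WT. Since the counting is not stated to use strand, reads of this pair cannot be told apart. In all, 94 members overlap another gene of the table, and 66 share at least 1 window of 150 bases with the transcript of another gene, 9 of them over more than 50% of their windows.

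Tested against WT by limma with Benjamini-Hochberg adjustment over all genes, 55 members were higher and 21 lower in del-4 at an adjusted p under 0.05, of 239 tested. That is 31.8% of the members, where 40.7% of all genes passed the same test (20.5% higher and 20.2% lower). In del-56, 32 were higher and 47 lower of 240 tested, or 32.9% against 39.7% of all genes (19.2% higher and 20.5% lower). Both comparisons use the same 3 WT libraries. Set directly against del-56, del-4 had 47 members higher and 4 lower, or 21.3% against 19.9% of all genes. In that comparison 10.9% of all genes passed as higher and 9.0% as lower. The other genes of chromosome 19 leaned the same way. Of 1056 tested, 185 were higher and 42 lower in del-4 (21.5%), with a median log2 fold change of 0.060. The median log2 fold change of the members was 0.051 in del-4, 0.0036 in del-56 and 0.058 between the clones, and that of all genes -0.0028, -0.0011 and -0.0026. Fewer cells of a type and less RNA per cell cannot be told apart in such bulk samples.

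Libraries of the 2 groups did not overlap for 73 members higher in del-4 than WT and 28 lower, where 24.8% of all genes were separate in each direction and 49.5% in either. For del-56 these numbers were 54 and 58 (24.0% and 24.8% of all genes, 48.7% in either direction). Between the clones they were 78 and 14 (17.6% and 17.1%, 34.7% in either direction), and among the 1056 other genes of chromosome 19 they were 278 and 100.

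The splits moved with the scaling and with single libraries. After rescaling the libraries to the same total, 34 members rose in del-4 while 32 fell, and for del-56 the numbers were 23 and 51. The number lower in del-4 fell to 11 without WT replicate 3 and to 12 without del-4 replicate 3. The number higher in del-56 fell to 20 without del-56 replicate 2, and the number lower to 31 without WT replicate 3.

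Changes of more than 1 log2 unit were few. At that size, 5 members were higher (1.89% of all genes) and 3 lower (2.94% of all genes) in del-4 than in WT. In del-56, 0 were higher (2.18%) and 9 lower (2.69%). In either direction 4.83% of all genes were past it in del-4 and 4.87% in del-56, and 2.93% between the clones. Between the clones, 9 members stood higher in del-4 (1.38%) while 0 stood lower (1.55%), and the 9 fell to 5 without del-4 replicate 3 and to 5 without del-56 replicate 2. For the 2 counts of 0, edgeR and DESeq2 also gave 0. At an unadjusted p under 0.05 the first became 1 and the second stayed at 0. The 15 members that passed this limit in any comparison included 10 of 19p12. They were also mostly weak genes, since 11 of the 22 members under 100 normalized counts were among them and 4 of the 218 others.

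**Figure D2:**
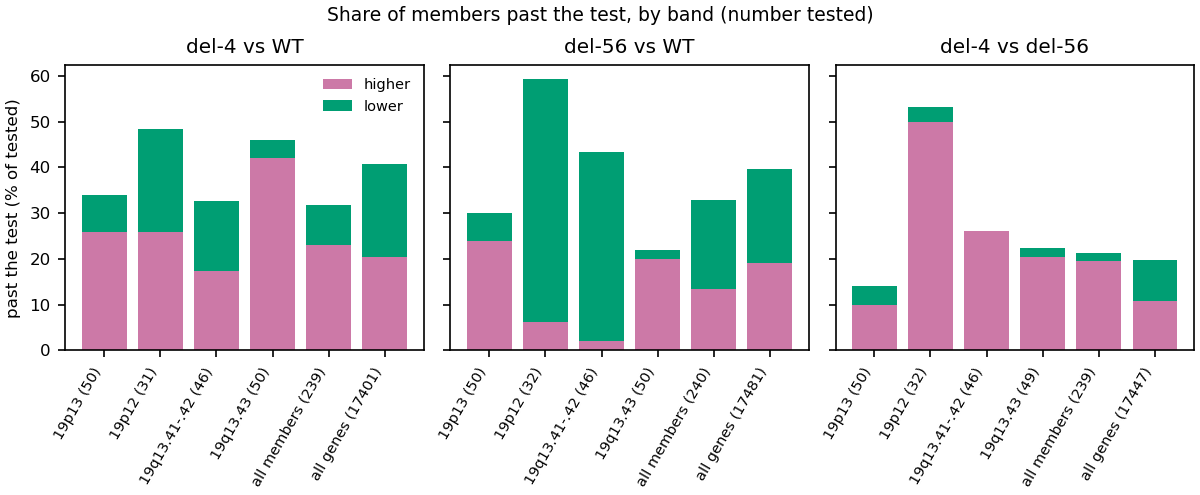
Share of the tested members with an adjusted p under 0.05 (limma), higher and lower stacked, for selected bands of chromosome 19, all members and all genes in each of the 3 comparisons, with the number tested in parentheses. In 19p12 the share was 59.4% in del-56 against WT, almost all of it lower, and 53.1% between the clones, against 39.7% and 19.9% of all genes.

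In 19p12, 8 members passed as higher than WT in del-4 and 7 as lower, of 31 tested, which is 48.4%, against 29.3% of the members outside the band and 40.7% of all genes. In del-56, 2 were higher and 17 lower of 32, which is 59.4% against 28.8% outside. Between the clones 16 were higher on the side of del-4 and 1 on that of del-56, which is 53.1% against 16.4% outside. The median log2 fold change of the band was -0.029 in del-4, -0.26 in del-56 and 0.355 between the clones. Library by library, the median of the band relative to the WT mean was -0.306, -0.192 and -0.288 in del-56, from -0.0254 to -0.00676 in del-4 and from -0.00939 to 0.0479 in WT. All 3 del-56 libraries therefore lay below the other 6. The number lower in del-56 stayed between 14 and 17 under the other scalings, tests and filters and with any 1 library left out.

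The shift was also present without the weak genes. Among members with a mean of at least 100 normalized counts, 16 of 22 in 19p12 passed in del-56, 14 of them lower, with a median of -0.25, against 58 of 196 outside the band, which were 30 higher and 28 lower. Between the clones 13 of these 22 passed, 12 of them higher in del-4, against 32 of 196 outside, which were 29 higher and 3 lower. Of all genes, 39.7% passed in del-56 and 19.9% between the clones. Only 2 genes of 19p12 that are not members had a mean of at least 1. Of these, 1 passed as higher in del-4, 0 passed in del-56 and 0 between the clones, though for both all del-4 libraries lay above all del-56 libraries.

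**Figure D3:**
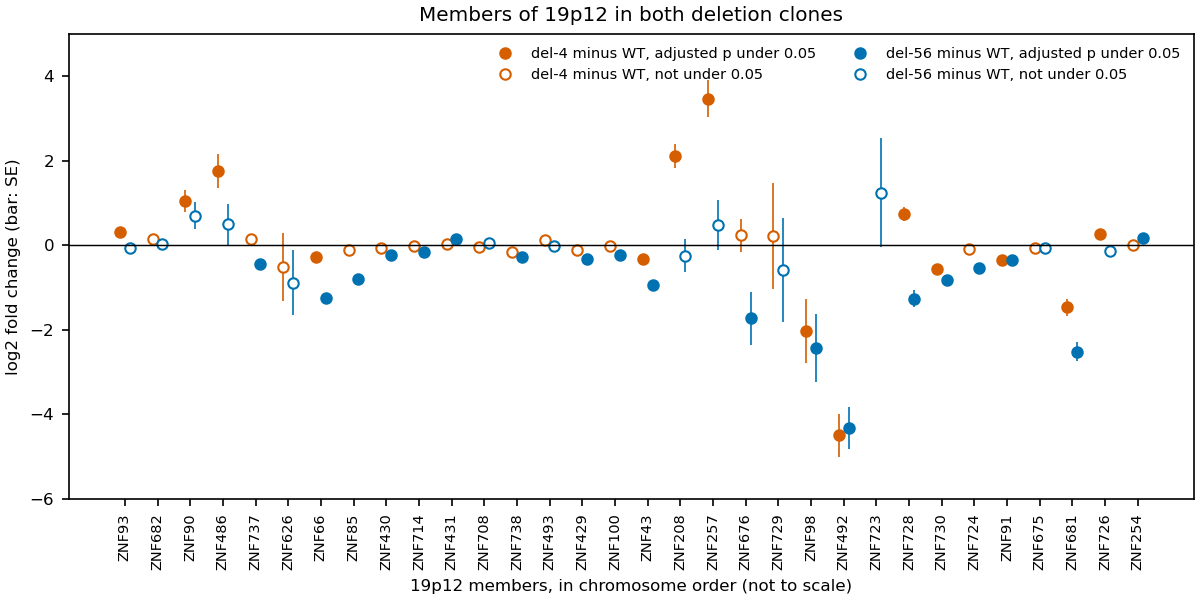
Log2 fold change against WT of the 32 members of 19p12 in chromosome order, for del-4 and del-56, with bars for the SE and filled points for an adjusted p under 0.05 (limma). The points of del-56 lie mostly below 0, and the widest spread falls on the run from ZNF208 to ZNF728.

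Several members of the band with a mean of at least 100 show the del-56 shift clearly, but not all do. ZNF675 and ZNF93 did not pass in del-56 (-0.071 and -0.059, adjusted p = 0.45 and 0.59, limma). ZNF91, the most abundant of the band, was equally lower in both clones (-0.34 and -0.34). ZNF43 (chr19:21804946-21852125), a classical KRAB gene of the cluster, had 2095, 2182 and 2278 normalized counts in del-4, 1427, 1394 and 1466 in del-56 and 2747, 2613 and 2873 in WT. The 3 clones did not overlap. The log2 fold change of ZNF43 was -0.33 in del-4 (SE 0.055, adjusted p = 9.9e-05) and -0.94 in del-56 (SE 0.059, adjusted p = 4.2e-09), with 0.61 between the clones (SE 0.061, adjusted p = 9.1e-07, limma).

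ZNF66 (chr19:20776304-20809995) had 741, 915 and 845 in del-4, 458, 377 and 428 in del-56 and 1036, 1033 and 939 in WT. Every del-56 library lay below every other. Its change was -1.25 in del-56 (SE 0.10, adjusted p = 9.1e-08, limma) and -0.27 for del-4 (adjusted p = 0.022). The latter was no longer past the test without del-4 replicate 1 (-0.187, adjusted p = 0.12), nor without del-4 replicate 3, WT replicate 1 or WT replicate 2. Its neighbour ZNF85 had 1155, 1120 and 1198 in del-4, 710, 676 and 778 in del-56 and 1328, 1253 and 1157 in WT, so that del-4 and WT overlapped and del-56 was low. The change of ZNF85 was -0.79 in del-56 (SE 0.086, adjusted p = 2.4e-06, limma) and -0.10 in del-4 (adjusted p = 0.28).

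ZNF730 (chr19:23075210-23147221) was lower in both clones. Its counts were 1866, 1850 and 1900 in del-4, 1661, 1519 and 1563 in del-56 and 2761, 2763 and 2786 in WT, again without overlap. The change was -0.565 for del-4 (SE 0.050, adjusted p = 6.9e-08) and -0.81 for del-56 (SE 0.056, adjusted p = 1.6e-08, limma). ZNF737, ZNF724, ZNF429 and ZNF100 passed as lower in del-56 only, with -0.44, -0.55, -0.33 and -0.23, and each of these 4 was also lower in del-56 than in del-4 when tested directly (adjusted p between 7.8e-06 and 0.013, limma). ZNF724 shares 50.55% of its windows with another gene, so its value is uncertain. ZNF254 and ZNF431 were the 2 members of the band that passed as higher in del-56, by 0.18 (adjusted p = 0.012) and 0.16 (adjusted p = 0.044, limma), and neither was past the test without del-56 replicate 2 or without WT replicate 2. ZNF431 also lost it without del-56 replicate 3 and without WT replicate 1.

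The run ZNF208, ZNF257, ZNF676, ZNF729, ZNF98, ZNF492, ZNF723 and ZNF728 lies without another member between them in the middle of 19p12. All but ZNF728 had a mean under 100 normalized counts. It holds the 2 largest rises in del-4 against WT among the 19p12 members, ZNF257 and ZNF208, and the largest fall, ZNF492.

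ZNF257 (chr19:22052430-22091480, plus strand) had 86.4, 114 and 122 normalized counts in del-4, 9.54, 14.1 and 14.6 in del-56 and 5.80, 19.3 and 5.66 in WT. The del-4 libraries were all above the other 6, which overlapped each other. The log2 fold change was 3.46 in del-4 (SE 0.43, adjusted p = 4.2e-06) and 0.48 in del-56 (SE 0.59, adjusted p = 0.57), and 2.99 between the clones (SE 0.34, adjusted p = 5.0e-06, limma). ZNF208, which lies beside it on the minus strand (chr19:21932958-22010949), had 136, 162 and 133 in del-4, 22.9, 36.1 and 24.3 in del-56 and 37.7, 41.5 and 21.7 in WT. It was likewise high in del-4 alone, with -0.245 for del-56 (adjusted p = 0.66) and a change of 2.11 (SE 0.29, adjusted p = 1.0e-05) against WT and of 2.35 (SE 0.28, adjusted p = 7.9e-06, limma) against del-56. Both changes of ZNF208 and those of ZNF257 in del-4 held with any 1 library left out. ZNF208 shares 25.57% of its windows with a neighbouring transcript, and ZNF257 shares none.

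ZNF492 (chr19:22634324-22667671, plus strand) moved the other way. It had 9.60, 21.9 and 2.01 normalized counts in del-4, 17.2, 16.1 and 2.43 in del-56 and 195, 211 and 200 in WT, or 10, 22 and 2 reads, 18, 16 and 2 reads and 202, 219 and 212 reads. Both deletion clones were far below WT and overlapped each other. The log2 fold change was -4.49 in del-4 (SE 0.51, adjusted p = 1.4e-06) and -4.31 in del-56 (SE 0.50, adjusted p = 4.2e-06), with -0.18 between the clones (adjusted p = 0.91, limma). In geometric means of the normalized count plus 1, del-4 and del-56 were at 0.0444 and 0.0503 times WT. The log2 sizes rested in part on the lowest libraries, and became -3.70 without del-4 replicate 3 and -3.53 without del-56 replicate 3.

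ZNF98, on the minus strand next to it, shares 22.29% of its windows with ZNF492 and was low in the same clones. Its reads were 3, 1 and 1 in del-4, 1, 0 and 2 in del-56 and 12, 12 and 6 in WT. The ratio of WT to del-56 was 9.16, with an exact binomial 95% interval of 2.85 to 46.9. That interval takes reads as independent and is too narrow, because both mates of a pair were mostly counted. The limma test passed in both clones (adjusted p = 0.040 in del-4 and 0.025 in del-56), but edgeR gave an adjusted p of 0.085 and 0.055. Leaving out WT replicate 1 or 2, del-4 replicate 2 or 3, or del-56 replicate 2 also took the call away. ZNF729 and ZNF723 had at most 10 reads in any library and passed in no comparison.

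ZNF728 (chr19:22974883-23003176) was the most abundant gene of the run. It had 422, 371 and 462 normalized counts in del-4, 114, 88.4 and 108 in del-56 and 282, 287 and 189 in WT. The 3 clones formed 3 separate levels. Against WT the log2 fold change was 0.74 in del-4 (SE 0.16, adjusted p = 0.0012) and -1.26 in del-56 (SE 0.20, adjusted p = 0.00014), and 2.005 between the clones (SE 0.17, adjusted p = 1.2e-07, limma). ZNF676 had 42.3, 20.9 and 52.2 in del-4, 1.91, 18.1 and 14.6 in del-56 and 36.7, 33.8 and 22.6 in WT. Its change of -1.72 in del-56 (adjusted p = 0.039, limma) was not past the test in edgeR (adjusted p = 0.079) and became -0.867 without del-56 replicate 1 (adjusted p = 0.16). It was also not past the test without any 1 of the WT libraries.

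Outside the run, ZNF681 (chr19:23739195-23758891) was lower in both clones. It had 116, 144 and 97.4 normalized counts in del-4, 49.6, 50.2 and 72.8 in del-56 and 389, 351 and 257 in WT, and the 3 clones did not overlap. The change was -1.47 in del-4 (SE 0.19, adjusted p = 7.9e-06) and -2.51 in del-56 (SE 0.22, adjusted p = 2.7e-07), with 1.045 between the clones (SE 0.26, adjusted p = 0.0080, limma).

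At the other end of the band, ZNF486 and ZNF90 were higher in del-4. ZNF486 had 38.4, 39.8 and 56.2 in del-4, 21, 12 and 21.8 in del-56 and 13.5, 14.5 and 9.43 in WT, a change of 1.77 in del-4 (SE 0.40, adjusted p = 0.0017), against 0.49 for del-56 (adjusted p = 0.46, limma). ZNF90 had 147, 79.7 and 140 in del-4, 53.4, 119 and 124 in del-56 and 50.3, 63.7 and 56.6 in WT. Its change was 1.045 in del-4 (SE 0.27, adjusted p = 0.0046), against 0.70 for del-56 (adjusted p = 0.092, limma), and without del-56 replicate 1, the low library, the latter became 1.09 (adjusted p = 0.005). Between the clones ZNF90 differed by 0.35 (SE 0.31, adjusted p = 0.50).

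**Figure D4:**
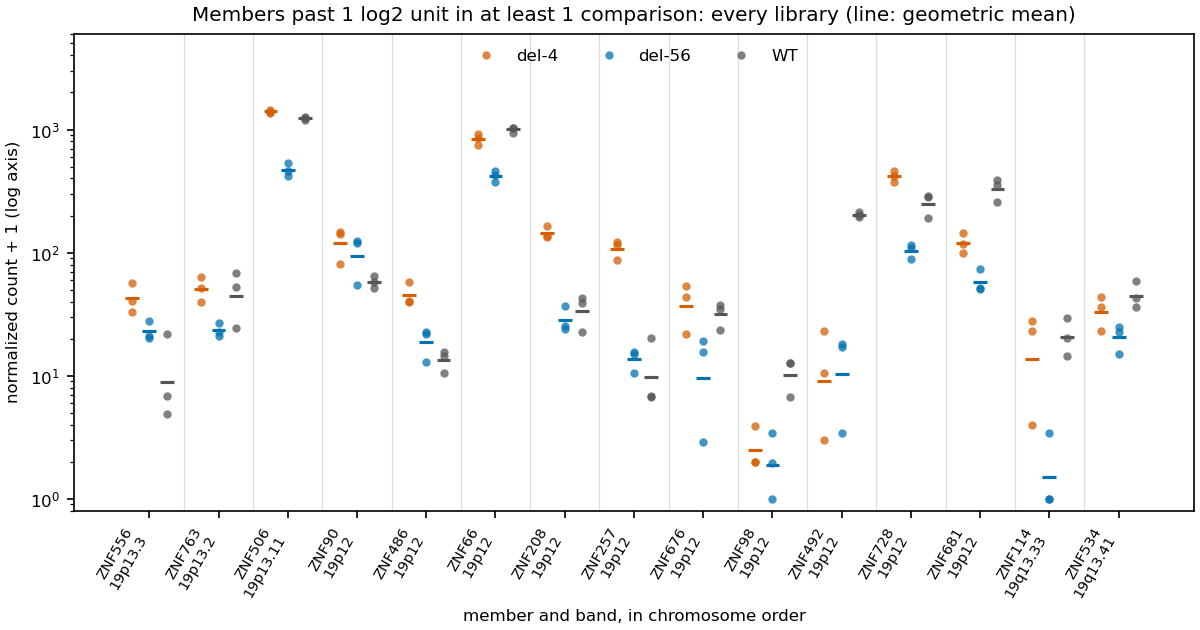
Normalized count plus 1 (log axis) in every library for the 15 members that passed the test with more than 1 log2 unit in at least 1 comparison, in chromosome order, with short lines for the geometric mean of each clone. ZNF492 stood near 200 in WT and between 2.01 and 21.9 in the deletion clones, and ZNF208 and ZNF257 were high in del-4 alone.

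Just outside 19p12, in 19p13.11, ZNF506 (chr19:19785839-19821751) was low in del-56 as well. It had 1453, 1371 and 1399 normalized counts in del-4, 463, 538 and 421 in del-56 and 1250, 1260 and 1189 in WT, so del-56 was at about 0.383 times the WT level. The log2 fold change was -1.38 in del-56 (SE 0.099, adjusted p = 2.2e-08) and 0.19 in del-4 (SE 0.066, adjusted p = 0.026), with 1.58 between the clones (SE 0.097, adjusted p = 1.4e-09, limma). The small rise in del-4 was no longer past the test after rescaling to the same total (0.12, adjusted p = 0.16), nor without del-4 replicate 1, del-4 replicate 3 or WT replicate 3. ZNF253, its neighbour, had 3165, 3186 and 3053 in del-4, 2067, 2419 and 2076 in del-56 and 1964, 1827 and 1951 in WT. This gene was higher in del-4, by 0.71 (SE 0.052, adjusted p = 5.2e-09), and by 0.19 in del-56 (adjusted p = 0.035), which became 0.115 (adjusted p = 0.20) without del-56 replicate 2 and was also not past the test without any 1 of the WT libraries.

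Over the whole of 19p13, with ZNF506 and ZNF253 included, 13 of 50 members were higher and 4 lower in del-4, and 12 were higher and 3 lower in del-56. These are 34.0% and 30.0%, below the 40.7% and 39.7% of all genes. After rescaling to the same total the counts for del-4 were 9 and 8, and the 4 became 1 without WT replicate 3 and 1 without del-4 replicate 3. ZNF627 was higher in both clones, by 0.30 (adjusted p = 2.3e-04) and 0.43 (adjusted p = 1.3e-05, limma), and it overlaps ACP5 on the opposite strand. ZNF709 was higher by 0.35 and 0.53 but shares 92.1% of its windows with other genes, and its del-4 call was lost after rescaling to the same total and without del-4 replicate 2 or 3 or WT replicate 1 or 2. ZNF491, which had 106, 106 and 111 in del-4, 137, 151 and 119 in del-56 and 184, 154 and 164 in WT, fell by 0.63 in del-4 (adjusted p = 0.012), and ZNF700 by 0.23 (adjusted p = 0.022, limma). The latter became -0.168 without del-4 replicate 3 (adjusted p = 0.12), and was also not past the test without WT replicate 2 or 3.

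ZNF556, at the tip of the short arm in 19p13.3, had 55.7, 39.8 and 32.1 normalized counts in del-4, 26.7, 20.1 and 19.4 in del-56 and 3.87, 5.79 and 20.7 in WT. The del-4 libraries lay above all others and WT replicate 3 lay within the range of del-56. The change was 2.25 in del-4 (SE 0.54, adjusted p = 0.0025) and 1.35 in del-56 (SE 0.58, adjusted p = 0.078, limma). Without WT replicate 3 they became 2.89 and 1.99, and the latter then passed (adjusted p = 0.017). ZNF763 of 19p13.2 had 38.4, 61.8 and 50.2 in del-4, 25.8, 20.1 and 21.8 in del-56 and 66.7, 23.2 and 51.8 in WT. It passed only between the clones, with 1.10 (SE 0.35, adjusted p = 0.036), and lost that call without del-4 replicate 2 (0.939, adjusted p = 0.13), as it did without replicate 3 of del-4, del-56 replicate 2 or del-56 replicate 3. It shares 45.01% of its windows with another gene.

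**Figure D5:**
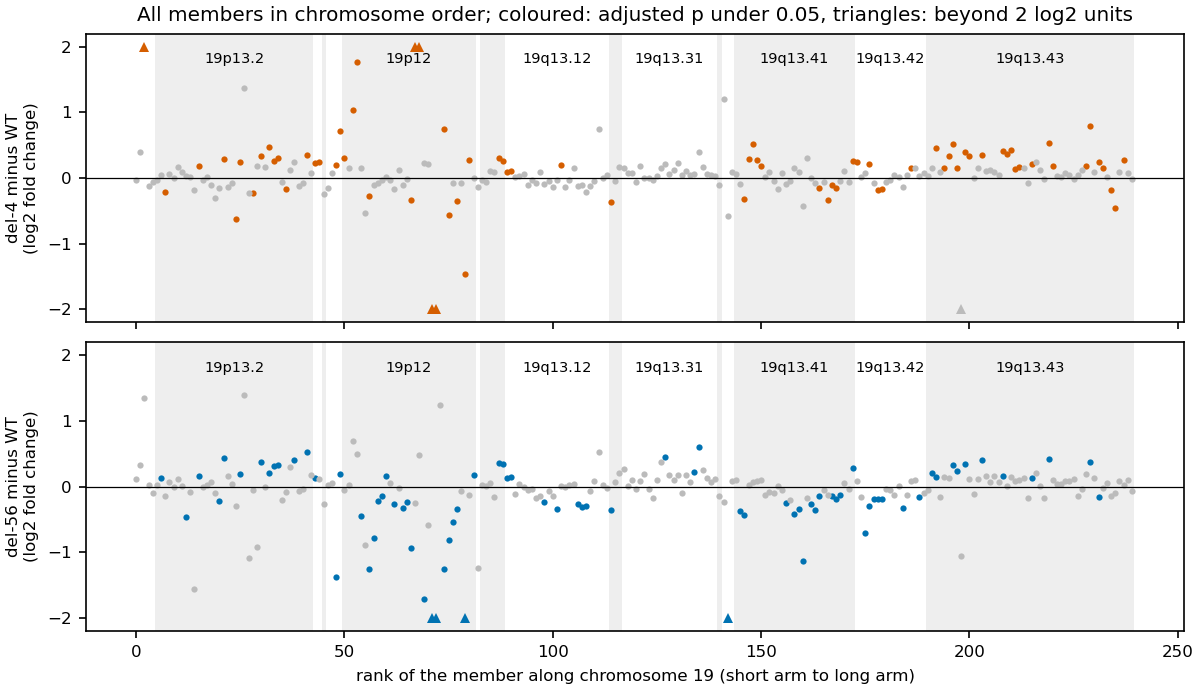
Log2 fold change against WT of all 240 members by rank along the chromosome, for del-4 above and del-56 below, with colour for an adjusted p under 0.05 (limma) and triangles at the edge for changes beyond 2 log2 units. In del-56 the members of 19p12 and of 19q13.41 to 19q13.42 lie mostly below 0, and in 19q13.43 most members of both clones lie above it.

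On the long arm most changes were small, and they are given by sub-band. In 19q13.43, at the end of the chromosome, 21 members were higher and 2 lower in del-4 (median 0.136) and 10 higher and 1 lower in del-56 (median 0.092), of 50. In either direction these are 46.0% and 22.0%, against 40.7% and 39.7% of all genes. That share was near that of all genes in del-4 and below it in del-56. The split by direction was uneven, whereas of all genes 20.5% passed as higher and 20.2% as lower in del-4. In del-56 these were 19.2% and 20.5%. In del-4 the count higher was 13 after rescaling to the same total. In del-56 it was 6 without del-56 replicate 2. The median of every del-4 library lay between 0.136 and 0.143 above the WT mean and that of every del-56 library between 0.0681 and 0.0972, while WT libraries lay between -0.0115 and 0.0276. The other genes of 19q13.43 had a median of 0.088 in del-4, with 10 higher and 4 lower of 44, and of -0.020 in del-56, with 7 higher and 5 lower.

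ZNF135 of this sub-band (chr19:58059239-58086310) had 1779, 1753 and 1732 normalized counts in del-4, 1470, 1156 and 1331 in del-56 and 1014, 971 and 1053 in WT. It rose by 0.79 in del-4 (SE 0.065, adjusted p = 2.5e-08) and by 0.375 in del-56 (SE 0.087, adjusted p = 0.0026, limma), and overlaps ZSCAN18 on the opposite strand. ZNF671 had 645, 659 and 575 in del-4, 525, 614 and 582 in del-56 and 392, 452 and 448 in WT, with a rise of 0.54 (adjusted p = 5.5e-04) and 0.41 (adjusted p = 0.0077, limma). ZNF837 was one of the few that fell there, by 0.46 in del-4 (adjusted p = 9.5e-04, limma), against -0.10 for del-56 (adjusted p = 0.45).

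In 19q13.41 and 19q13.42 together, 1 member was higher and 19 lower in del-56, of 46 (43.5%, against 39.7% of all genes in either direction and 20.5% lower), with a median of -0.13, while in del-4 8 were higher and 7 lower, or 4 and 11 after rescaling to the same total. The 7 became 2 without WT replicate 3, 3 without del-4 replicate 3, and 4 when replicate 1 of either clone was left out. The count lower in del-56 was 10 without WT replicate 3 and 11 without del-56 replicate 3. The median of this stretch relative to WT was -0.195 in del-56 replicate 3 and -0.0799 and -0.093 in the other 2 del-56 libraries. The other genes of the stretch had a median of -0.108 in del-56, with 5 higher and 15 lower of 83. ZNF534 had 22.1, 42.8 and 35.2 in del-4, 23.9, 14.1 and 21.8 in del-56 and 34.8, 57.9 and 41.5 in WT. It fell by 1.13 in del-56 (SE 0.38, adjusted p = 0.027, limma), a call that was lost without del-56 replicate 2 (-0.91, adjusted p = 0.096), without WT replicate 2 and without WT replicate 3. Of the 23 members of 19q13.31, 0 were past the limma test in del-4 and 3 in del-56, all higher, and the median was 0.069 and 0.119. ZNF233 of 19q13.31 rose by 0.60 in del-56 (adjusted p = 0.011, limma), a call lost without del-56 replicate 2 and without WT replicate 2. ZNF223 rose by 0.45 (adjusted p = 0.042, limma), which became 0.287 (adjusted p = 0.20) without WT replicate 2 and was also not past the test without del-56 replicate 2 or 3, and it shares 60.71% of its windows with another gene. ZNF546 of 19q13.2 was lower in both clones, with -0.365 (adjusted p = 0.0080) and -0.355 (adjusted p = 0.012, limma), and neither was past the test without WT replicate 3, nor the second without del-56 replicate 2.

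To look for members that are on in one clone and off in another, a member was called on where each library of a clone had at least 20 reads and off where each had at most 3. Under this rule 222 members were on in all 3 clones, 6 were off in at least 1 clone, and 0 were on in one clone and off in another. Of all 17530 genes with a mean of at least 1, 35 (0.2%) were. The 6 members that were off somewhere were ZNF729, ZNF98, ZNF723, ZNF541, ZNF114 and ZNF835, and none of these was on anywhere. ZNF492 did not qualify, since 2 libraries of each deletion clone held 10 to 22 reads of it.

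ZNF114, in 19q13.33 (chr19:48270081-48287608), came nearest to a switch. It had 28, 3 and 22 reads in del-4, 0, 0 and 2 in del-56 and 20, 14 and 30 in WT. Del-56 was almost silent and del-4 was split, with replicate 2 at the level of del-56. The ratio of WT to del-56 was 29.3 (exact binomial 95% interval 7.79 to 247) and that of del-4 to del-56 was 25.0 (6.59 to 212). Both intervals take reads as independent and are too narrow, since the 2 reads in del-56 may be the mates of a single pair. By limma the log2 fold change in del-56 was -3.77 (adjusted p = 9.2e-04), a size that depends on the pseudocount at such counts, and the difference between the clones, 3.18 (adjusted p = 0.020), was not past the test without del-4 replicate 1 (adjusted p = 0.15), del-4 replicate 3 (0.13) or del-56 replicate 2 (0.058). With 10 reads as the limit for on, or without del-4 replicate 2 or WT replicate 2, ZNF114 was the 1 member that was on and off.

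Several members are known for DNA methylation of their promoters in tumours, and 8 such genes were listed. In del-4, 5 of the 8 were higher and 0 lower (median 0.245), in del-56 2 were higher and 2 lower (median -0.014), and 4 were higher in del-4 than in del-56. Of all genes, 40.7% and 39.7% passed in del-4 and del-56, and the 4 of 8 in del-56 are near that share. Between the clones, 10.9% of all genes passed as higher in del-4 and 19.9% in either direction. All members leaned the same way there, with 47 higher and 4 lower of 239. ZNF582, a methylation marker in cervical screening, had 5476, 5346 and 5357 normalized counts in del-4, 4225, 4460 and 4381 in del-56 and 3915, 3933 and 3915 in WT, with a rise of 0.46 (adjusted p = 4.8e-08) and 0.15 (adjusted p = 0.011, limma), the latter lost without del-56 replicate 2. ZNF677 had 2050, 2251 and 2177 in del-4, 1434, 1548 and 1524 in del-56 and 1853, 1894 and 1811 in WT, so that the clones stood on opposite sides of WT. Its change was 0.22 in del-4 (adjusted p = 0.0045), -0.30 in del-56 (adjusted p = 9.0e-04) and 0.52 between them (adjusted p = 8.1e-06, limma), and the del-4 call was lost after rescaling to the same total (0.15, adjusted p = 0.054). ZNF154 stayed low everywhere, between 33.8 and 53.7. ZNF177 had -0.46 in del-56 (adjusted p = 0.031) and 0.027 in del-4 (adjusted p = 0.91, limma), but shares 91.13% of its windows with the readthrough gene ZNF559-ZNF177. The del-56 call was lost under quantile normalization and without del-56 replicate 1, WT replicate 2 or WT replicate 3.

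Of 10 members with a described role, 5 rose and 1 fell in del-4, 1 rose and 3 fell in del-56, and 5 stood higher in del-4 than in del-56. In del-56 the 4 of 10 are near the 39.7% of all genes that passed, and 40.7% passed in del-4. Of all genes, 10.9% passed as higher in del-4 than in del-56 and 19.9% in either direction, while all members split 47 to 4. ZNF91, which represses SVA retrotransposons, had 4865, 4775 and 4578 normalized counts in del-4, 5017, 4751 and 4494 in del-56 and 6271, 5736 and 6039 in WT. It was lower in both clones, by -0.34 (SE 0.044, adjusted p = 5.2e-06) and -0.34 (SE 0.049, adjusted p = 4.5e-05, limma), and the clones overlapped. ZNF93, which represses LINE-1 elements, rose by 0.31 in del-4 (adjusted p = 8.3e-04), with -0.059 in del-56 (adjusted p = 0.59) and a difference of 0.37 (adjusted p = 0.0014, limma). ZNF274, which binds the ends of other zinc finger genes and brings SETDB1 to them, had 3234, 3605 and 3365 in del-4, 2605, 2437 and 2614 in del-56 and 2692, 2926 and 2971 in WT. It was higher in del-4, by 0.25 (adjusted p = 0.0012), and lower in del-56, by -0.165 (adjusted p = 0.026), with 0.41 between the clones (adjusted p = 2.6e-05, limma). The fall in del-56 was no longer past the test without del-56 replicate 2 (adjusted p = 0.11), without WT replicate 2 (0.098) or without WT replicate 3 (0.12). ZNF350, a partner of BRCA1, rose by 0.52 in del-4 (adjusted p = 2.0e-05), with 0.076 in del-56 (adjusted p = 0.50, limma).

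The genes that KRAB zinc finger proteins work through were described from a list of 27 corepressor and heterochromatin genes. In del-4, 7 of the 27 were higher and 8 lower, in del-56 8 were higher and 6 lower, and none changed by more than 1 log2 unit. Of all genes 40.7% and 39.7% passed, and 4.83% and 4.87% were also past 1 log2 unit. TRIM28 had means of 55580, 51590 and 56080 in del-4, del-56 and WT and did not pass (-0.010, adjusted p = 0.89, and -0.12, adjusted p = 0.12), and SETDB1 had -0.033 (adjusted p = 0.55) and 0.019 (adjusted p = 0.76, limma). RBBP4 and HDAC1, subunits of histone deacetylase complexes, were higher in both clones, by 0.46 and 0.34 in del-4 and by 0.34 and 0.36 in del-56. HDAC2 and SMARCAD1, a chromatin remodeller, were lower in both, by -0.36 and -0.46 in del-4 and by -0.14 and -0.205 in del-56.

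Markers of prostate luminal cells were high in every clone, with mean normalized counts of HOXB13 between 37100 and 38800. Of the 10 listed markers of other cell types, KRT5, CHGB, COL1A2, PTPRC, PECAM1 and TP63 had means of at most 3.865 in each clone. COL1A1 was higher in both deletion clones, by 0.33 and 0.34, and SYP had -0.60 in del-4 (adjusted p = 0.036, limma). The part of these in the results on the members was not tested.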

How the data were processed

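Polyadenylated RNA was sequenced as strand-specific paired-end libraries from 9 cultures, 3 of each clone, and libraries were grouped by clone. The authors aligned the reads to GRCh38 with STAR 2.71a, counted them on protein-coding genes (GENCODE 38) with bedtools 2.27.1 multicov and divided them by 1 DESeq2 size factor per library. FastQC 0.11.8, Trim Galore 0.6.5 and SAMtools 1.8 are also named in the submitters' processing notes. The deposited signal values are these normalized counts, and 100% of them were whole reads after the division was undone (tolerance 1e-06). Whether counting used exons or strand is not given in the sources used here. Of 96 member values between 1 and 20 reads, 80.2% were even, so both mates of a pair were mostly counted.

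Identifiers were matched to GENCODE 44 without versions (19905 matched, 79 not). Symbols with a letter after the digits, 6 of them, were left out. Members and lists were chosen with earlier results of these data known. Comparisons used limma 3.58.1 in R 4.3.3, with a variance trend, on log2 of the normalized count plus 1, keeping genes that averaged 1 or more in the 6 libraries compared. Adjusted p-values are Benjamini-Hochberg over all genes. The design expected normalized counts as the deposited unit, and the values were of that unit. Fold changes on this scale understate those of low genes. An exact permutation test of 3 against 3 libraries cannot go below 0.1, so none was used. On simulated data for del-4 against WT (17395 genes), limma recovered 98 of 100 genes changed 2-fold and 100 of 100 changed 4-fold, with 7 false calls. The simulation changed only genes with a mean of at least 10. It gave all genes the same small scatter beyond counting and did not count mates in pairs. It therefore does not show how well changes of weak members are recovered.

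Members were named where they were on and off, where they passed with at least 3 log2 units, where they were the 2 largest rises or falls of a band in a clone with a mean of at least 10, among the 5 highest per kilobase, or in a list. The others, among them ZNF66, ZNF85, ZNF43, ZNF90, ZNF486, ZNF676, ZNF98, ZNF728, ZNF730 and ZNF763, were named after their values were seen. Other settings tried were a pseudocount of 0.5 or 5, dropping the filter or raising it to 10, library totals made equal, quantile normalization, fitting the 9 libraries together, blocking on the replicate number, edgeR 4.0.16 and DESeq2 1.42.0 on the recovered reads, the unadjusted p, different limits for on and off, and omitting each library. Counts for 19p12 alone, and for members with a mean of 100 or more, were added after the data were seen. The cultures are biological replicates of single clones, and intervals cover counting error only and take reads as independent, so they are too narrow where both mates were counted. The result of 1 marker gene, and the marker counts that include it, are not reported here.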

Additional observations from a re-analysis of the deposited data

Results flagged for a closer look

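There were 9 members that differed between the 2 deletion clones by more than 1 log2 unit in the direct limma test at an adjusted p under 0.05, each with the higher level in del-4. These log2 differences were 1.58 for ZNF506, 1.27 for ZNF486, 2.35 for ZNF208, 2.99 for ZNF257, 1.96 for ZNF676, 2.005 for ZNF728 and 1.045 for ZNF681, which lie together in 19p12 or at its border. Outside it they were 1.10 for ZNF763 and 3.18 for ZNF114. ZNF506, ZNF208, ZNF257, ZNF728 and ZNF681 kept an adjusted p under 0.05 with any 1 library left out, and ZNF486, ZNF676, ZNF763 and ZNF114 lost it without at least 1.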

How the results depend on the processing

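After rescaling to the same total, which moved the median of all genes by -0.072 in del-4, -0.029 in del-56 and -0.043 between the clones, 34 members were higher and 32 lower in del-4 than WT, 8 were lower in del-4 than del-56, and 1 member of 19p12 was higher in del-56. It also turned ZNF177 (-0.042), ZNF254 (-0.066) and ZNF431 (-0.048) to the other side of 0 in del-4, where none had passed. The 0 members past 1 log2 unit higher in del-56 became 1 with all 9 libraries in 1 fit and 1 with the unadjusted p, and a limit of 10 reads for on gave 1 member that was on and off.

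With the replicate block, 26 members were higher and 39 lower in del-56, 53 and 21 in del-4, and the 19p12 members higher in del-56 went from 2 to 1. The deviations of same-numbered libraries correlated weakly, between -0.053 and 0.063 (15373 genes), and those of different-numbered libraries between -0.054 and 0.044. Same-numbered pairs with del-4 were all positive, from 0.023 to 0.063, while those of del-56 with WT were 0 or below. Whether the numbers mark a shared batch cannot be decided from such small values.

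With 1 library left out at a time, members higher in del-4 than WT numbered 43 to 50 and lower 11 to 19. Against WT, members higher in del-56 numbered 20 to 31 and lower 31 to 49. Between the clones 35 to 48 were higher in del-4 and 0 to 4 lower. Past 1 log2 unit, 0 to 1 were higher in del-56, and 5 to 8 were higher in del-4 than del-56. In 19p12, 0 to 3 were higher in del-56 than WT and 0 to 1 lower in del-4 than del-56. On and off members numbered 0 to 1.

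Values that changed sign when 1 library was left out had not passed. Between the clones ZNF492 ranged from -0.967 to 0.611, ZNF546 from -0.058 to 0.024, ZNF90 from -0.045 to 0.625 and ZNF98 from -0.052 to 0.836. In del-4 against WT, ZNF114 ranged from -1.096 to 0.307, ZNF177 from -0.014 to 0.102, ZNF254 from -0.044 to 0.029, ZNF431 from -0.023 to 0.061, ZNF763 from -0.252 to 0.491 and ZNF676 from -0.029 to 0.611. The cause was not tested. Of the other single-gene values under all alternatives, 2118 kept their direction and side of the threshold, 168 lost a call and 7 gained one. Counts under about 20 reads limit ZNF98, ZNF114, ZNF723 and ZNF729.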
